A study of Mus musculus with 32 samples.

Results

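Most Slc7 genes encode transporters that carry amino acids across the plasma membrane. Of this family, 10 genes were followed here in cultured mouse hippocampal neurons: Slc7a1, Slc7a2, Slc7a3, Slc7a5, Slc7a6, Slc7a7, Slc7a8, Slc7a10, Slc7a11 and Slc7a14. They were taken by symbol from 55573 genes in the count table, and all 10 passed the filter on low counts in every fit. The family was looked at because Slc7a3 had been picked for its enrichment in the soma of KCl-treated WT neurons. The values of Slc7a3 in that contrast are therefore given as a description and support nothing.

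Neurons from newborn pups were grown to day 15 in vitro on porous membranes, so that the fraction scraped from the top holds cell bodies (soma) and the fraction from the bottom holds axons and dendrites that passed the pores (neurites). RNA-seq covered 16 libraries in 8 groups of 2: both fractions of WT and of Mettl3 KO cultures, untreated (Ctrl) or depolarized with 55 mM KCl for 2 h. WT neurons came from C57BL/6 mice and KO neurons, labelled Mettl3-/-, from Mettl3Flox/Flox mice. DART-seq, which maps the RNA modification m6A by the cytidine editing that a fusion of APOBEC1 and a YTH domain leaves next to it, covered 16 further libraries of the same design. All cultures, WT included, received an AAV that expresses Cre and dTomato from the neuronal hSyn promoter on day 7, and all were silenced over 16 h by D-AP5 at 50 µM together with tetrodotoxin at 1 µM before they were treated or left untreated. Each culture pooled the pups of a single litter, cells without activity of the hSyn promoter keep an intact Mettl3, and any neurites that stayed above the membrane count as soma. In bulk RNA, fewer cells of a type and less RNA per cell cannot be told apart.

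Slc7 proteins fall into a pair of branches. The cationic amino acid transporters, Slc7a1, Slc7a2 and Slc7a3, work on their own and bring in arginine, lysine and ornithine, and Slc7a14 resembles them in sequence. The light chains, Slc7a5, Slc7a6, Slc7a7, Slc7a8, Slc7a10 and Slc7a11, reach the membrane as partners of a heavy chain, mostly Slc3a2, and exchange one amino acid for another. Slc7a5 and Slc7a8 carry large neutral amino acids, Slc7a6 and Slc7a7 exchange cationic for neutral amino acids, Slc7a10 carries small neutral amino acids such as D-serine in brain, and Slc7a11 imports cystine in exchange for glutamate, which feeds glutathione synthesis.

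DART-seq sites were called in 4 of the 10 members, and the most edited site of each is shown, as it carries the base that was measured. The windows are read from GRCm38 on the strand of the gene, 5′ to 3′, with the RAC triplet in capitals: its A is the candidate m6A and its C the edited base. The sites of Slc7a1, Slc7a8 and Slc7a14 lie in 3′UTRs, and that of Slc7a5 in the coding sequence of exon 5 of 10. They are chr5:148328207-148328227 for Slc7a1, chr8:121886912-121886932 for Slc7a5, chr14:54723691-54723711 for Slc7a8 and chr3:31205867-31205887 for Slc7a14, all on the minus strand.
Slc7a1: ggtcttgaGACacggtgatga
Slc7a5: tatgtgctGACgaacctggcc
Slc7a8: ccaggcgaAACttccattggg
Slc7a14: tcagtaatGACaaccagtact

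Library totals ran from 33789183 to 71394235 counts. WT replicates were closer to each other than KO replicates: the SD of the log2 ratio of replicates over 15170 genes was 0.153 to 0.346 in the 4 WT groups and 0.474 to 1.25 in the 4 KO groups, and the common biological coefficient of variation was 0.151 in WT and 0.505 in KO. Mettl3, the targeted gene, was at 13.5 to 16.7 CPM (the count of a gene relative to the TMM-scaled total of its library) in the 4 WT soma libraries and 6.18 to 11 CPM in the 4 KO soma libraries, without overlap. Its counts include exons outside the floxed part. The soma and neurite libraries of KCl-treated KO replicate 1 stood apart. Summed over 8 neuron markers they held 1180 CPM (soma) and 714 CPM (neurites), against 2620 to 4790 CPM in the other 14 libraries. Their 8 oligodendrocyte lineage markers summed to 3670 and 7330 CPM against 58.7 to 192 CPM elsewhere, the 8 astrocyte markers to 9520 and 18800 CPM against 1100 to 6460 CPM, and the 8 microglia markers to 406 and 297 CPM against 12 to 58.2 CPM. Gfap made up most of these astrocyte sums, at 6670 and 13700 CPM. Slc1a2 and Aldoc stayed below their highest values elsewhere, while the other astrocyte markers exceeded theirs. The 9 vessel and fibroblast markers summed to 101 and 594 CPM against 13.3 to 85 CPM. Col1a1, Dcn and Col1a2 made up most of the neurite sum, at 293, 127 and 124 CPM. Kdr and Flt1 stayed below their highest values elsewhere in both fractions, as did Col1a1 in soma and Pecam1 in neurites. No marker of these lists was at 0 in any library. Most fitted values of named members that rest on KCl-treated KO libraries are followed by the value without this pair. The genotype difference of Slc7a1 is not. Tests of untreated KO libraries also take their spread from fits that hold this pair.

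To compare the members with each other, levels were divided by exon length (CPM per kilobase, given as FPKM). In untreated WT soma Slc7a8 was at 24.0 ± 2.28 FPKM, Slc7a14 at 18.9 ± 1.24 and Slc7a5 at 12.1 ± 1.34 (SD, n = 2 each). Below these came Slc7a6 at 7.41 ± 0.0256, Slc7a11 at 5.50 ± 0.200, Slc7a3 at 3.57 and Slc7a1 at 2.20 ± 0.0146 FPKM. The replicates of each of these 7 genes lay apart from those of its neighbours in the order. Slc7a7 at 0.444 ± 0.0302 FPKM, Slc7a10 at 0.346 ± 0.148 and Slc7a2 at 0.212 ± 0.0129 were lowest, and the replicates of Slc7a7 and Slc7a10 overlapped. The heavy chain Slc3a2 was at 79.9 and 77.1 FPKM, above all light chains. Levels of Slc7a2, Slc7a7 and Slc7a10 rest on 33 to 150 counts per untreated WT soma library, and 6.951%, 6.998% and 17.859% of their exon bases overlap Gm26584, Oxa1l and Lrp3 on the other strand, from which reads counted without strand cannot be told apart.

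**Figure D1:**
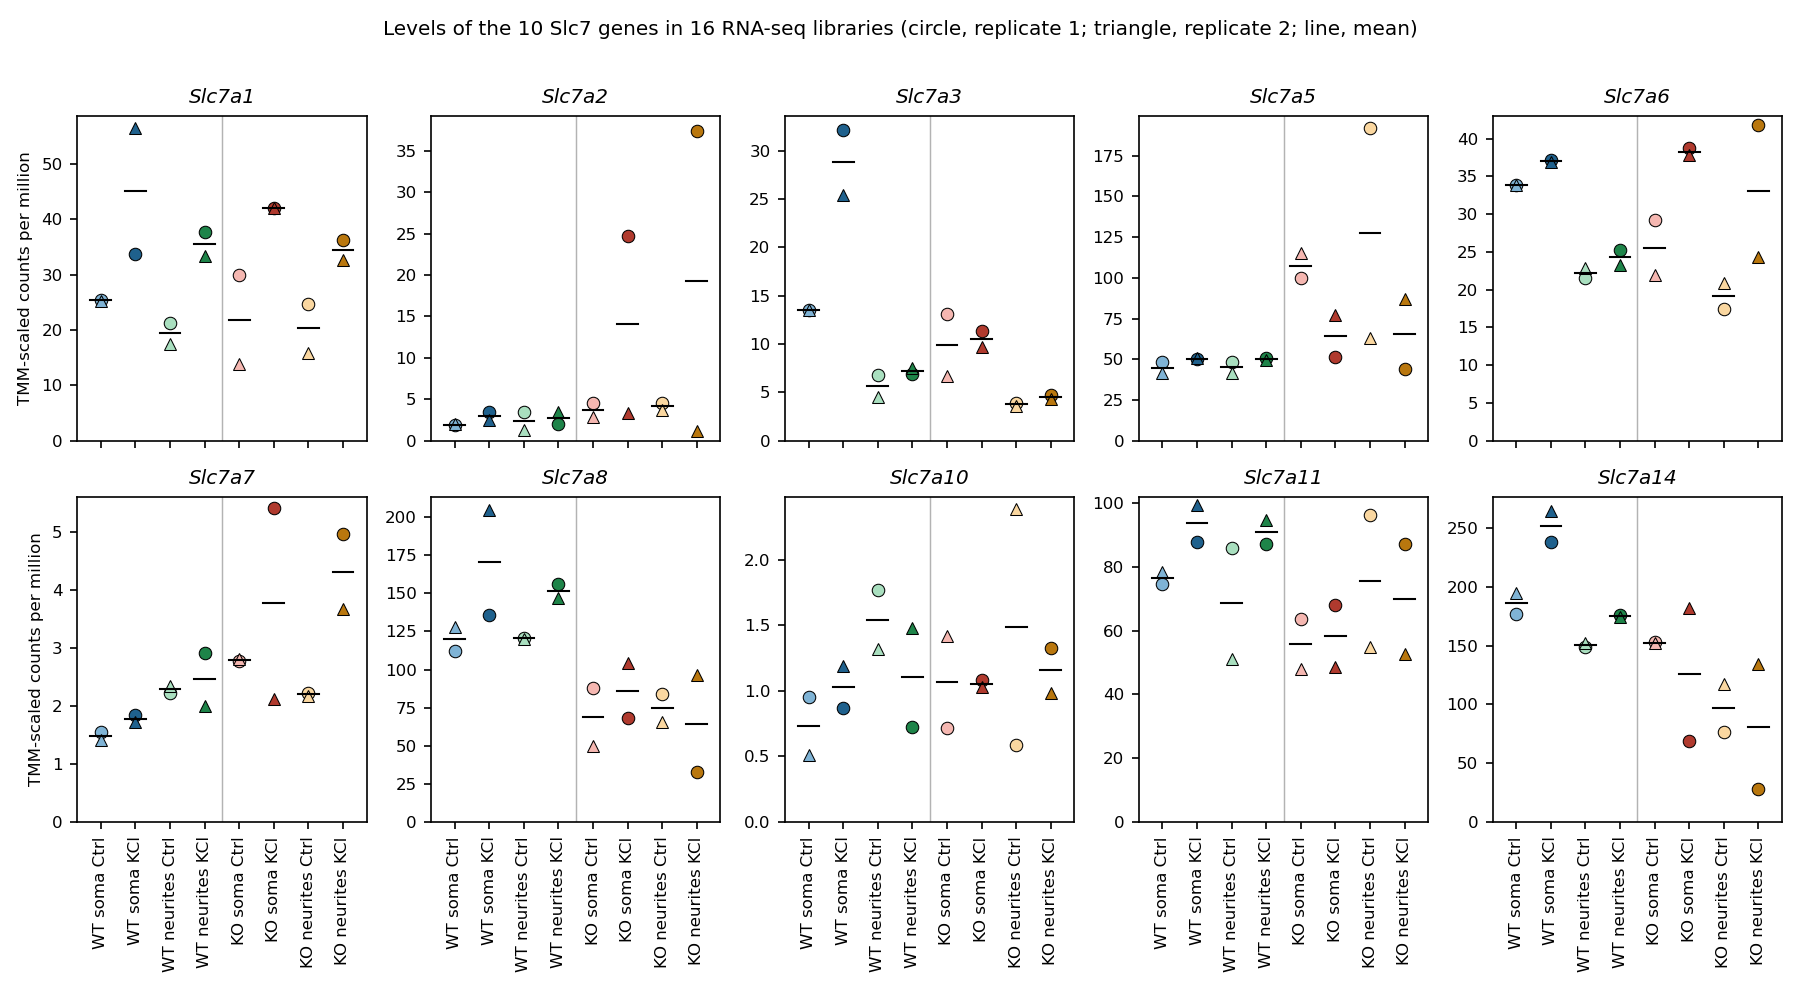
TMM-scaled CPM (y axis, from 0, a separate scale per gene) of the 10 Slc7 genes in the 16 RNA-seq libraries, by group (x axis). Circles are replicate 1, triangles replicate 2 and lines the mean of both; Slc7a3 is highest in KCl-treated WT soma, at 32.2 and 25.4 CPM, and Slc7a2 reaches 24.7 and 37.4 CPM in KCl-treated KO replicate 1.

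The first comparison asks which of the transporter RNAs make up a larger share of the RNA in soma than in neurites. Libraries of both fractions were made from equal amounts of RNA, so a ratio does not tell where most of an RNA lies. Slc7a3 and Slc7a6 were lower in neurites than in soma of untreated WT neurons, and Slc7a14 less so. Slc7a3 (ENSMUSG00000031297, chromosome X from 101079210 to 101086020, GRCm38) was at 13.5 and 13.5 CPM in soma and at 6.77 and 4.57 CPM in neurites. The groups did not overlap, which is a weak mark with 2 libraries a group, here and below. Its share over all genes was not counted. The log2 ratio of neurites to soma was −1.33 ± 0.19 (SE, edgeR quasi-likelihood adjusted p = 0.00168). This contrast did not choose Slc7a3, but it is not independent of the choice. The study reports a strong correlation of neurite enrichment between untreated and KCl-treated neurons, and its control and KCl cultures shared a litter. Slc7a6 (ENSMUSG00000031904, chromosome 8 from 106168857 to 106198706), a light chain, was at 33.8 and 33.9 CPM in soma and at 21.6 and 22.9 CPM in neurites. Its log2 ratio was −0.70 ± 0.12 (edgeR adjusted p = 0.00308). A gene was called here at an adjusted p of at most 0.05 and a change of at least 1.5-fold, which 13.5% of 23200 genes reached, 8.99% higher and 4.52% lower in neurites. Among the members 2 of 10 were called, both lower in neurites, and Slc7a3 is among these 2, so the count is not free of the choice. Slc7a6 lost the call without untreated WT soma replicate 2 (log2 ratio −0.62, edgeR adjusted p = 0.0614), while Slc7a3 kept it without any one of the 4 libraries, at −1.66 to −1.09. Without the filter on low counts 3 members were called, the third being Slc7a10, higher in neurites (log2 ratio 1.01, edgeR adjusted p = 0.0495). Without TMM, a scaling chosen as an alternative after the data were seen, the median of all genes moved by −0.23 on the log2 scale and 4 members were called lower, Slc7a1, Slc7a3, Slc7a6 and Slc7a14.

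Slc7a14, the third of these, passed the adjusted p but not the fold. It was at 177 and 195 CPM in untreated WT soma and at 149 and 152 CPM in neurites, a log2 ratio of −0.40 ± 0.11 (edgeR adjusted p = 0.0290). Leaving out any one of the 4 libraries ended this (log2 ratio −0.41 to −0.25, edgeR adjusted p of 0.0922 to 0.384), and −0.25 was the value without WT soma replicate 2. Without TMM it was −0.63 and called. The heavy chain Slc3a2 had nearly the same ratio, −0.41 ± 0.10 (edgeR adjusted p = 0.0219). The other members gave no call. Slc7a1 had a log2 ratio of −0.48 ± 0.22 and the low-count Slc7a10 one of 0.99 ± 0.42, with adjusted p of 0.150 and 0.124 in edgeR, and leaving out 1 library each put Slc7a10 at 0.69 to 1.59. The ratios of Slc7a5, Slc7a8, Slc7a11 and Slc7a2 lay between −0.25 and 0.23 with an SE of at most 0.40, and Slc7a7 stood at 0.54 ± 0.26. The median log2 ratio of the 10 members was −0.17, against −0.10 over all genes. Neuron markers summed to 3280 and 3420 CPM in these soma libraries and to 4280 and 4790 CPM in neurites. As a list they did not shift: 4 of 8 had a ratio above 0 and 1 was called higher, with a median log2 ratio of −0.01. Astrocyte markers summed to 1100 and 1120 CPM in soma and to 2990 and 1960 CPM in neurites, and 4 of 8 were called higher in neurites, with a median log2 ratio of 0.58. Of the vessel and fibroblast markers 4 of 8 tested were called higher (median 1.05), of the microglia markers 2 of 7 (1.12) and of the oligodendrocyte lineage markers 2 of 7 (0.50), beside the 8.99% of all genes. The part of these cells in the ratios was not tested.

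With KCl the order was alike in WT. Slc7a3 was at 32.2 and 25.4 CPM in soma and at 6.93 and 7.52 CPM in neurites, a log2 ratio of −1.98, which is the contrast it was picked from. Slc7a6 was at 37.2 and 36.9 CPM in soma and at 25.3 and 23.3 CPM in neurites. Its log2 ratio of −0.59 ± 0.11 (edgeR adjusted p = 0.00868) was a 1.51-fold difference, close to the threshold, and 7 of 11 alternative settings lost the call, among them leaving out any one of the 4 libraries (−0.67 to −0.52). Slc7a14 had a log2 ratio of −0.50 ± 0.11 (edgeR adjusted p = 0.0141), under 1.5-fold. It lost the adjusted p without WT neurite replicate 1 (edgeR adjusted p = 0.101) or 2 (0.103), and without TMM it was −0.68 and called. The 2 members called were Slc7a3 and Slc7a6, beside 9.54% of all genes and 2.7% called lower in neurites, and since the contrast chose Slc7a3 nothing is read from that count.

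In Mettl3 KO neurons, whose libraries played no part in choosing the gene, Slc7a3 was also lower in neurites. Untreated KO soma held 13.1 and 6.68 CPM and neurites 3.93 and 3.62 CPM. KCl-treated KO soma held 11.3 and 9.69 CPM and neurites 4.74 and 4.35 CPM. Soma and neurites did not overlap in either treatment. The log2 ratios were −1.42 ± 0.49 untreated and −1.28 ± 0.48 with KCl (edgeR adjusted p of 0.873 and 1.00). Neither passed, and 0% of 23099 genes did in either contrast. These fits had no term for the culture that a soma and a neurite library share by the study's methods. Differences between replicates correlated at 0.902 over genes between KCl-treated KO soma and neurites. The SE and p with KCl therefore include a spread that both fractions share, and a paired ratio was not tested. With 1.5-fold and the p taken before adjustment, at most 0.05, 5.26% of genes passed untreated (1.51% lower in neurites) and 0.632% with KCl (0.571% lower), and 1 of 10 members in each, Slc7a3. DESeq2 called 13 genes untreated and 0 with KCl at an adjusted p, none of them members. Without both libraries of KCl-treated KO replicate 1 the ratio with KCl was −1.14, no longer past the unadjusted threshold, which leaving out any one of the 4 KCl libraries also ended (−1.38 to −1.10). Leaving out untreated KO soma replicate 1 moved the untreated ratio to −0.80, and leaving out replicate 2 moved it to −1.79. Only without KO soma replicate 2 was the unadjusted threshold still passed, of the 4 libraries left out in turn. Slc7a6 had ratios of −0.46 ± 0.39 and −0.29 ± 0.39 in the same contrasts, neither past the test. Without the pair of KCl-treated KO replicate 1 the ratio with KCl was −0.62, and without KO neurite replicate 2 it was 0.06.

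**Figure D2:**
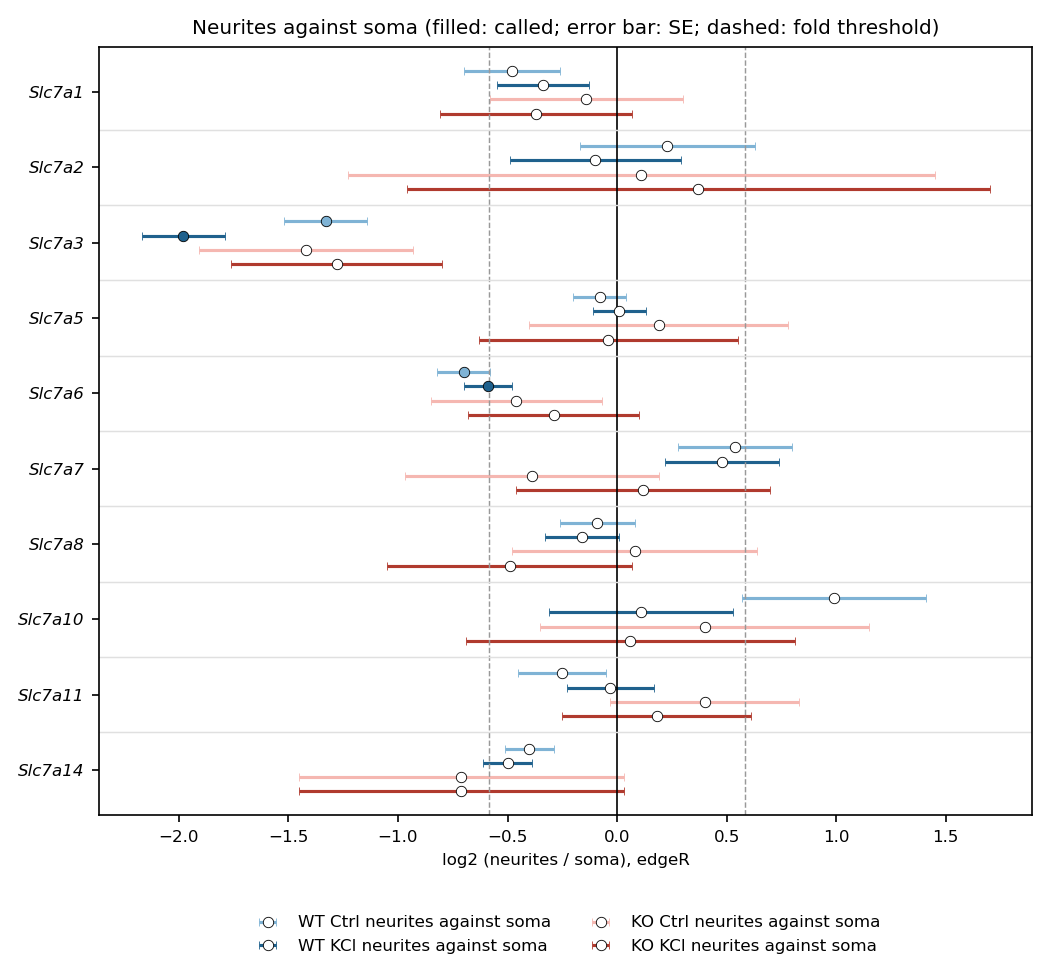
Log2 ratio of neurites to soma (x axis) of each member (y axis) in 4 contrasts, from edgeR. Points are fitted ratios, bars the SE, filled points genes called at an adjusted p, and dashed lines 1.5-fold; all 4 points of Slc7a3 lie left of the fold line, from −1.98 to −1.28, and the KO bars are wider than the WT bars.

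The second comparison asks which of the RNAs respond to 2 h of depolarization. In WT soma 10 of 10 members had a log2 change above 0, with a median of 0.39 against 0.01 over all genes, but only Slc7a3 was called. Slc7a3 is 1 of the 10 and was picked in these KCl-treated libraries, so the counts and the median are not free of that choice. Without TMM the median of all genes was −0.14, and 8 of 10 members were above 0, so the count above 0 depends on the scaling, while 10 of 10 lay above the median of all genes either way. Marker lists of other cells moved the same way: 8 of 8 astrocyte markers (median log2 change 0.27), 6 of 7 microglia markers (0.43), 6 of 8 vessel and fibroblast markers (0.20) and 5 of 7 oligodendrocyte lineage markers (0.20) were above 0, as were 5 of 8 neuron markers (0.26). None was called, and their part in the members' changes was not tested. A call here needs an adjusted p of at most 0.05 and a change of at least 2-fold, which 6.81% of 23200 genes reached, 3.8% higher and 3.01% lower. Slc7a3 rose from 13.5 and 13.5 CPM to 32.2 and 25.4 CPM, a log2 change of 1.01 ± 0.19 (edgeR adjusted p = 0.00512). This is 2.02-fold, just past the threshold, and the KCl-treated soma libraries are the ones in which the gene had been picked as high. The call was lost without KCl-treated WT soma replicate 1 (log2 change 0.86, where Slc7a1 was called at 1.11) and without untreated WT soma replicate 1 (edgeR adjusted p = 0.0518). Without TMM the change was 0.87 (edgeR adjusted p = 0.0135), under 2-fold, and no member was called.

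Slc7a1, the widely expressed cationic transporter, was the other member past the adjusted p. It went from 25.5 and 25.2 CPM to 33.8 and 56.6 CPM in WT soma and from 21.3 and 17.5 CPM to 37.7 and 33.4 CPM in WT neurites. The groups did not overlap in either fraction. The log2 changes were 0.76 ± 0.22 in soma (edgeR adjusted p = 0.0404) and 0.90 ± 0.22 in neurites (edgeR adjusted p = 0.0293), both under 2-fold and so not called. The soma value rested on KCl-treated replicate 2, without which it was 0.32 (edgeR adjusted p = 0.178), against 1.11 without replicate 1, where it was called. Without either untreated soma library the adjusted p was 0.153 to 0.155 in edgeR. In neurites leaving out any one of the 4 libraries ended the adjusted p (log2 change 0.77 to 1.05, edgeR adjusted p of 0.0599 to 0.170). Control and KCl cultures shared a litter by the study's methods, and with the replicate number as a block the adjusted p was 0.0631 in soma and 0.0460 in neurites in edgeR. Without TMM it was 0.0775 and 0.0464. In KO soma Slc7a1 went from 29.9 and 13.8 to 42.1 and 42.1 CPM, a log2 change of 0.90 ± 0.44 (edgeR adjusted p = 0.759), and in KO neurites the change was 0.67 ± 0.44 (edgeR adjusted p = 0.732). Without both libraries of KCl-treated KO replicate 1 these were 0.92 and 0.70. The KCl change in soma differed between the genotypes by 0.11 ± 0.51 for Slc7a1 (KO minus WT, log2, edgeR adjusted p = 0.994), and in neurites the difference was not tested.

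In WT neurites 0 of 10 members were called, at adjusted or unadjusted p with 2-fold, where 4.94% of all genes were called at an adjusted p (3.24% higher) and 9.06% at an unadjusted one. DESeq2 also called 0. The median log2 change was 0.23 against 0.01 over all genes, and 0.13 against −0.08 without TMM. Slc7a3 was at 6.77 and 4.57 CPM untreated and at 6.93 and 7.52 CPM with KCl, a log2 change of 0.37 ± 0.20 (edgeR adjusted p = 0.307). It was 0.12 without untreated neurite replicate 2 and 0.69 without replicate 1. The change of neurite enrichment with KCl, fitted with 1 term per insert, was −0.61 ± 0.27 for Slc7a3 on the log2 scale (edgeR adjusted p = 0.999). It missed the unadjusted p of at most 0.05 that, with 1.5-fold, 3.36% of genes reached, and 0 of 10 members were called. The miss was narrow: DESeq2, RLE scaling, no filter and no insert term each put Slc7a3 past the threshold, with log2 values of −0.67, −0.67, −0.61 and −0.64, and leaving out 1 library each gave −0.99 to −0.31. These values share the KCl-treated WT libraries in which Slc7a3 was picked.

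**Figure D3:**
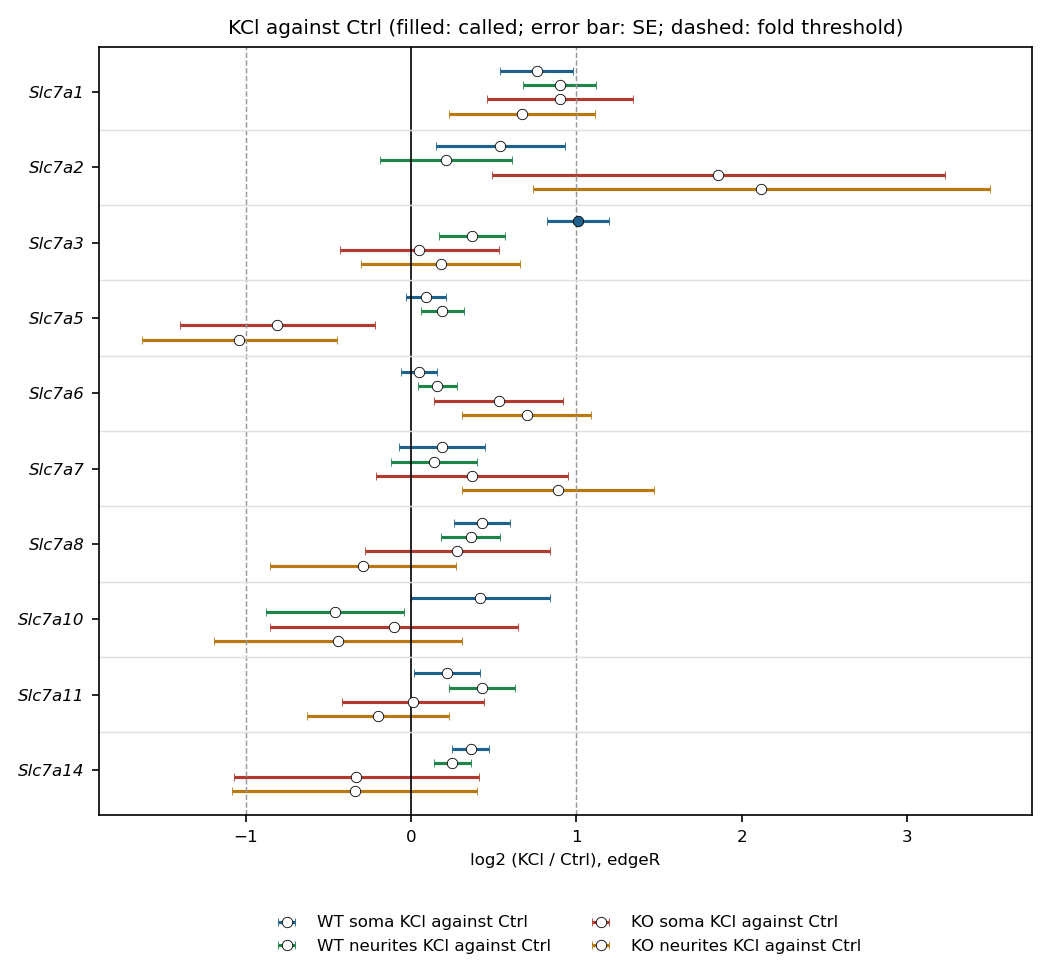
Log2 change with KCl (x axis) of each member (y axis) in soma and neurites of WT and KO neurons, from edgeR. Points are fitted changes, bars the SE, the filled point the called gene and dashed lines 2-fold; only Slc7a3 in WT soma is filled, at 1.01, and Slc7a2 has the widest bars, in KO.

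The light chains and Slc7a14 moved little in WT. Slc7a14 went from 177 and 195 to 238 and 265 CPM in soma (log2 change 0.36 ± 0.11, edgeR adjusted p = 0.0533). Slc7a8 went from 112 and 128 to 136 and 205 CPM (0.43 ± 0.17, edgeR adjusted p = 0.141). Neither passed the test. Neither pair of groups overlapped, which says little with 2 libraries a group: the groups of Slc7a6 did not overlap either, at a log2 change of 0.05 ± 0.11. Slc7a5, often named with nutrient sensing, stayed between 41.3 and 50.8 CPM in all 8 WT libraries, with log2 changes of 0.09 ± 0.12 in soma and 0.19 ± 0.13 in neurites. Slc7a11 stood at 0.22 ± 0.20 and 0.43 ± 0.20 in the same order, and its partner Slc3a2 at 0.31 ± 0.10 and 0.23 ± 0.10, with no call.

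The genes around these transporters were read from lists by their counts. Of 25 genes of the amino acid response, the program that the transcription factor Atf4 runs when amino acids are short, 2 were called higher in WT soma and 2 in WT neurites, beside 3.8% and 3.24% of all genes called higher. Atf4 itself rose 5.58-fold in soma and 6.22-fold in neurites (edgeR adjusted p of 5.8e-07 and 5.4e-07), and Cebpb, a factor that pairs with it, rose 2.96-fold and 2.95-fold. Enzymes of amino acid synthesis and tRNA charging on the list gave no call. Of 21 other amino acid transporters tested, 3 rose in each fraction: Slc38a2, a carrier of small neutral amino acids, 3.75-fold and 3.80-fold, Slc16a10, an aromatic amino acid carrier, 3.24-fold and 4.36-fold, and Slc1a5, a glutamine carrier, 3.27-fold and 2.41-fold in soma and neurites. All of these exceeded the called change of Slc7a3.

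What becomes of the cargo was also covered. Of 16 genes of arginine and polyamine metabolism tested, Arg2, which splits arginine to ornithine, rose 2.60-fold in WT soma and 3.08-fold in neurites, and Sat1, which acetylates polyamines, rose 2.47-fold in soma. Of 12 genes of glutathione and cystine use, Gclc, the catalytic subunit of the first enzyme of glutathione synthesis, rose 2.73-fold and 2.29-fold. No gene of these 4 lists was called lower in either fraction, where 3.01% of all genes were called lower in soma and 1.7% in neurites. The medians of the 4 lists were 0.20, 0.19, 0.04 and −0.01 on the log2 scale in soma.

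In Mettl3 KO neurons no gene was called for KCl in either fraction (0% of 23099 genes at an adjusted p in edgeR), while 6.2% of genes in soma and 6.12% in neurites passed an unadjusted p with 2-fold, none of them members. DESeq2 called 268 and 249 genes, none of them members. Slc7a3 in KO soma was at 13.1 and 6.68 CPM untreated and at 11.3 and 9.69 CPM with KCl, overlapping groups with a log2 change of 0.05 ± 0.48 (edgeR adjusted p = 0.980) and of −0.05 without both libraries of KCl-treated KO replicate 1. The difference between the genotypes in this change was −1.0 ± 0.47 on the log2 scale (edgeR adjusted p = 0.991), from changes of 1.09 in WT and 0.09 in KO in the fit over all 16 libraries, and −1.07 without both libraries of KCl-treated KO replicate 1. It did not pass the test, 0% of 23335 genes did, and 1.7% of genes but not Slc7a3 passed an unadjusted p with 2-fold. Without untreated KO soma replicate 1 it was −0.50 and without replicate 2 it was −1.37. The WT side of this difference rests on the libraries in which the gene was picked.

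Slc7a2 shows how much 1 culture weighs in KO. It was at 1.11 to 4.6 CPM in 14 libraries and reached 24.7 CPM (soma) and 37.4 CPM (neurites) in KCl-treated KO replicate 1, whose partners held 3.34 and 1.11 CPM. The fitted KCl changes were 1.86 ± 1.37 and 2.12 ± 1.38 on the log2 scale (edgeR adjusted p of 0.774 and 0.732). Without that pair of libraries they were −0.19 and −1.87. Slc7a7 was likewise at 5.4 and 4.95 CPM in that pair and at 1.4 to 3.66 CPM elsewhere, while Slc7a14 fell to 69.1 and 27.9 CPM there, against 76.6 to 265 CPM elsewhere. These are the libraries with 3670 and 7330 CPM of oligodendrocyte lineage markers and the fewest neuron markers, and the part of cell types in these levels was not tested.

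**Figure D4:**
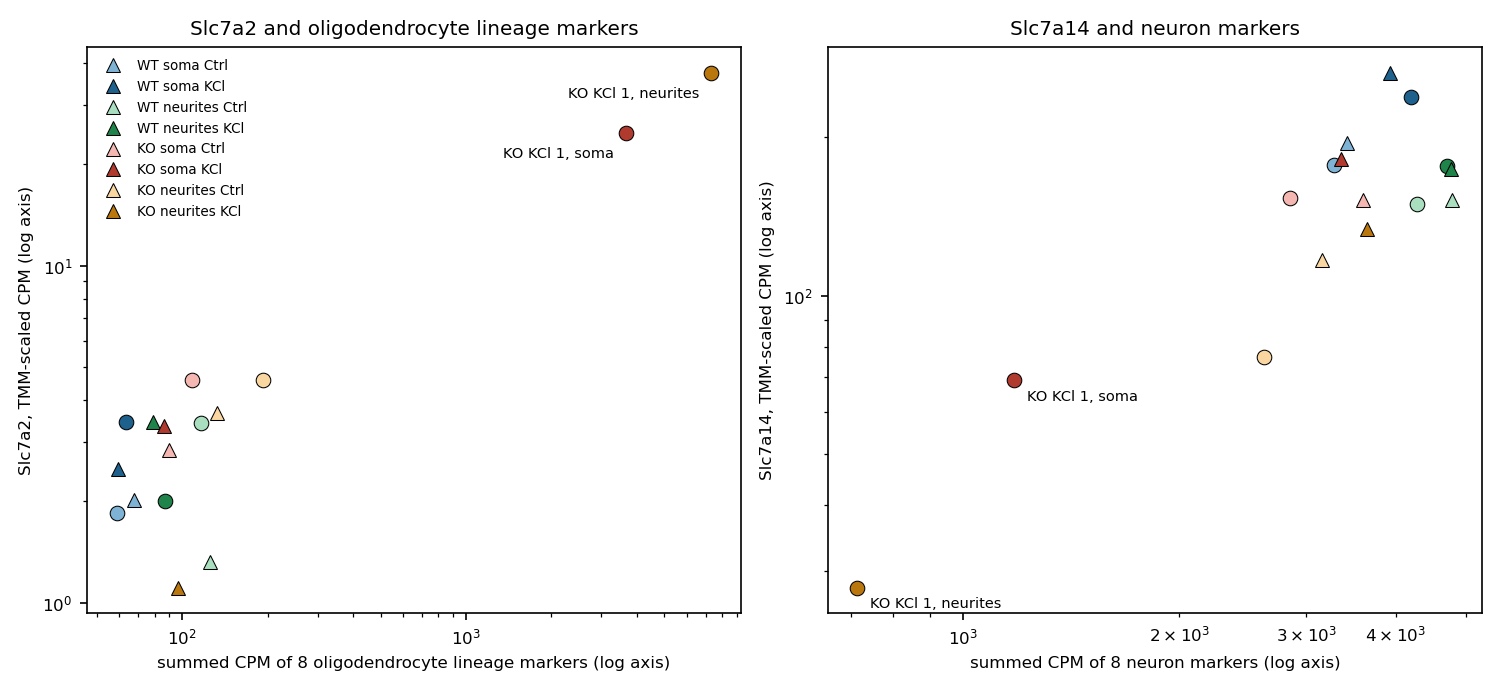
Left, Slc7a2 (y axis, TMM-scaled CPM, log axis) against the summed CPM of 8 oligodendrocyte lineage markers (x axis, log axis); right, Slc7a14 against 8 neuron markers, both for the 16 libraries (circles, replicate 1; triangles, replicate 2; colors, groups). The soma and neurite libraries of KCl-treated KO replicate 1 lie apart in both panels, at 24.7 and 37.4 CPM of Slc7a2 and at 69.1 and 27.9 CPM of Slc7a14.

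The third comparison sets KO against WT. Of the 10 members 0 were called, beside 0.189% of 23335 genes in untreated soma, 0.171% in untreated neurites and 0.227% in KCl-treated soma. At an unadjusted p with 1.5-fold the members passing were 1, 1 and 3, beside 8.51%, 6.93% and 14.2% of genes. Strain background and genotype cannot be told apart, as the WT cultures are not from littermates.

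Slc7a5 was the member with the lowest p in untreated cultures. It was at 48.3 and 41.3 CPM in WT soma and at 100 and 115 CPM in KO soma, and at 48.6 and 41.6 CPM in WT neurites and 192 and 63.3 CPM in KO neurites. The genotypes did not overlap. The log2 differences of KO to WT were 1.26 ± 0.45 in soma (edgeR adjusted p = 0.409) and 1.5 ± 0.45 in neurites (edgeR adjusted p = 0.350). In neurites 1 library carried much of it: without KO replicate 1 the value was 0.49. Its partner Slc3a2 was at 282 and 272 CPM in WT and 432 and 407 CPM in KO soma, a log2 difference of 0.60 ± 0.27 (edgeR adjusted p = 0.557). In neurites it was 0.34 ± 0.27 (edgeR adjusted p = 0.918). Other light chains differed in sign in soma, with Slc7a8 at −0.80 ± 0.44 and Slc7a7 at 0.92 ± 0.43. Atf4 differed by 0.98 ± 0.32 in the same soma libraries (edgeR adjusted p = 0.359). Of the 25 amino acid response genes 0 were called there, beside 0.189% of all genes. At an unadjusted p with 1.5-fold 2 passed, both higher, beside 8.51%. Astrocyte markers summed to 2410 and 1820 CPM in these KO soma libraries against 1100 and 1120 CPM in WT. In neurites they summed to 6460 CPM in KO replicate 1 and 2780 CPM in KO replicate 2, against 2990 and 1960 CPM in WT. Their part was not tested.

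In KCl-treated soma Slc7a3 was at 32.2 and 25.4 CPM in WT and at 11.3 and 9.69 CPM in KO, without overlap. The log2 difference was −1.46 ± 0.34 (edgeR adjusted p = 0.134), and −1.57 (adjusted p = 0.172) without both libraries of KCl-treated KO replicate 1. DESeq2 called it (log2 −1.45, adjusted p = 0.00132), as did edgeR without the filter (adjusted p = 0.0442). The WT libraries are again those of its choice. In untreated soma, which had no part in that, KO held 13.1 and 6.68 CPM against 13.5 and 13.5 CPM, a log2 difference of −0.46 ± 0.33 (edgeR adjusted p = 0.742) that was −0.96 without KO replicate 1 and −0.09 without KO replicate 2. The remaining members that passed the unadjusted p in KCl-treated soma were Slc7a8, with a log2 difference of −0.99 ± 0.44, and Slc7a7, with 1.08 ± 0.43 (edgeR adjusted p of 0.337 and 0.285). Without the pair of KCl-treated KO replicate 1 these were −0.71 and 0.25. The KO change in neurite enrichment of untreated cultures gave 0 of 10 members at the unadjusted p, beside 4.29% of genes, with −0.03 ± 0.40 for Slc7a3.

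Called m6A sites were confined to Slc7a1, Slc7a5, Slc7a8 and Slc7a14 among the members, 11 of 18231 sites listed for 5643 RNAs. The remaining 6 members, Slc7a3 among them, have no site in the list. The authors called sites only above a minimum number of reads at the position and in more than 1 replicate. Slc7a2, Slc7a7 and Slc7a10 had 33 to 150 counts over the whole gene per untreated WT soma RNA-seq library. Slc7a3, also without a site, had 1095 and 878 counts there. Slc7a6, at 2734 and 2202, and Slc7a11, at 6041 and 5097, had more counts than Slc7a1, at 2063 and 1638, which has a site. Depth at single positions is not known, and why these members have no site was not tested. Absence from the list is not taken as absence of m6A. The authors kept sites with an RAC context that were depleted in Mettl3 KO, so neither property is a finding here. The site of Slc7a1 printed above (position 148328217, last exon, 13 of 13) was edited at 15.23%, above 97.2% of listed sites, whose median was 3.54%. The 3′UTR of Slc7a8 held 2 sites, at 9.958% and 3.266%. Slc7a14 held 1, at 1.642%.

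Slc7a5 held 7 sites, where 10.7% of listed RNAs held at least 7 and the median was 2. The strongest, at 8.622%, lies in coding exon 5, and 2 further coding sites in exons 7 and 1 were at 2.208% and 1.197%. The 4 sites of its 3′UTR, in exon 10 of 10, were at 4.952%, 3.067%, 0.891% and 0.375%. The authors' editing score of an RNA, a value pooled over libraries with no replicates here, was 0.148 in soma and 0.178 in neurites for Slc7a5. It was 0.169 and 0.12 for Slc7a1, 0.153 and 0.11 for Slc7a8, and 0.0185 and 0.0144 for Slc7a14. Thus 1 of 4 members scored higher in neurites, where 68.8% of all listed RNAs did. No error is known for these scores, and depth at the sites is unknown, so no difference was tested. The 4 edited members had WT neurite to soma log2 ratios of −0.48 (Slc7a1), −0.08 (Slc7a5), −0.09 (Slc7a8) and −0.40 (Slc7a14) in untreated cultures. By the study's description its soma and neurite averages of editing hold control and KCl-treated samples alike, so scores and ratios differ in treatment.

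**Figure D5:**
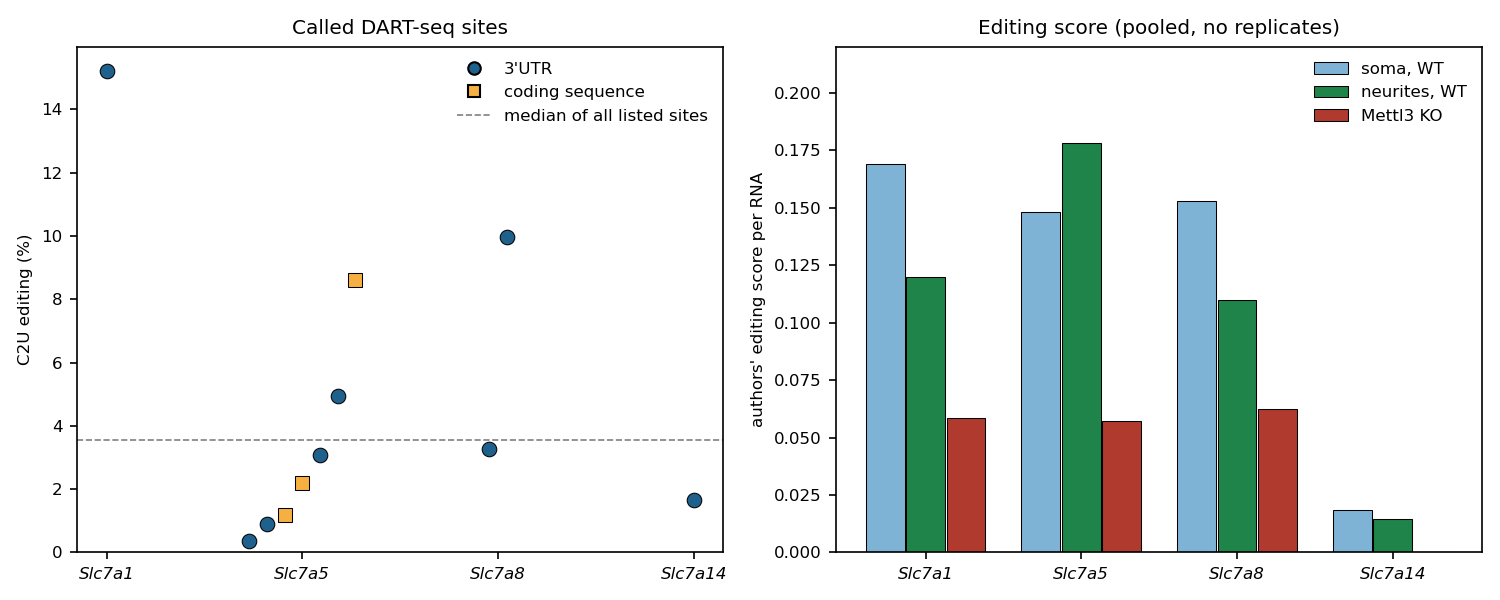
Left, C2U editing in percent (y axis) at the 11 called sites of the 4 members with sites (x axis; circles, 3′UTR; squares, coding sequence; dashed line, median of all listed sites at 3.54%). Right, the authors' editing score per RNA, pooled with no replicates, in WT soma, WT neurites and Mettl3 KO; Slc7a1 has the single most edited site at 15.23%, and the score is higher in neurites than in soma for Slc7a5 alone among the 4.

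Promoters were searched for letters that factors induced with KCl can bind, since Atf4 and Cebpb rose. RefSeq promoters on GRCm38.p6, from 250 bases before to 50 after a start, were at hand for 7 members (13 promoters), not for Slc7a2, Slc7a3 or Slc7a5. TGATGNAA, the letters of an amino acid response element, occurred on either strand in promoters of 2 of the 7, Slc7a7 and Slc7a11, which is 3 of the 13 promoters, against 3.97% of 32851 promoters of all genes. TGACGTCA, the full cAMP response element, occurred in 0 of 13 (1.79% of all promoters). Its shorter form TGACG, which also lies inside it, occurred in 3 of 13, of Slc7a1 and Slc7a6 (20.81%), and TGACTCA, an AP-1 element, in 1 of 13, of Slc7a1 (5.2%). A gene can have several promoters that share letters. A match is a description of letters only. The 2 matches of Slc7a11 lie 66 and 47 bases before the start and are shown, with the letters in capitals, because they sit close together; the first is chr3:50443664-50443687 and the second chr3:50443645-50443668, read on the minus strand, where the second shows the letters of the opposite strand.
Slc7a11, first: catgtggcTGATGCAAacctggag
Slc7a11, second: tggagaatTTGCATCAtcatgcag

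The genes whose pattern was most like that of Slc7a3 over the 16 libraries, by Pearson's r of log2(CPM + 1) across 15169 genes averaging 100 counts or more, were Hspa13 (r = 0.905), Slc4a7 (0.887), Abca5 (0.857), Ostm1 (0.847) and Snx14 (0.845). The points share libraries and groups, and r is a description. Hspa13 averaged 79.5 CPM in WT Ctrl soma, 101 CPM in KCl soma, 57.1 CPM in Ctrl neurites and 60.3 CPM in KCl neurites. In KO it averaged 69.3 and 49.4 CPM in Ctrl soma and neurites and 58.7 and 62.3 CPM in KCl soma and neurites, so with KCl it was not lower in KO neurites, unlike Slc7a3.

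Of the Slc7 genes outside the 10 members, Slc7a4, an orphan relative of the cationic transporters, was at 164 and 166 CPM in untreated WT soma and at 94.3 and 95.9 CPM in KO soma, a log2 difference of −0.79 ± 0.32 (edgeR adjusted p = 0.478). In untreated neurites it was −0.91 ± 0.32 (edgeR adjusted p = 0.476). In KCl-treated soma Slc7a4 was at 185 and 193 CPM in WT and at 56.6 and 91.5 CPM in KO. That difference, −1.35 ± 0.32 (edgeR adjusted p = 0.144), was close to that of Slc7a3, −1.46 ± 0.34. Slc7a12 passed the filter at 0.156 to 1.18 CPM over the 16 libraries, and Slc7a9, Slc7a13 and Slc7a15 did not pass it.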

How the data were processed

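RNA-seq reads were aligned to mm10 with STAR 2.7.7a and assigned to the exons of Ensembl genes with featureCounts 2.0.1 by the authors, who counted reads mapping to several places and set no strand. The deposited counts are whole numbers per gene without normalization. The deposited table of DART-seq holds the authors' editing score per RNA, pooled over libraries, and the site list holds a C2U fraction per site; the score is not the exact sum of the listed fractions (0.164 against 0.2131 in WT for Slc7a5). Columns of the authors' own comparisons (fold changes and adjusted p in the DESeq2 and DART-seq tables) were not used. Symbols came from the authors' tables.

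The members and gene lists were chosen with earlier results of these data known. Counts were scaled by TMM and tested with edgeR 4.0.16 (R 4.3.3; the two-sided quasi-likelihood test, with p-values adjusted over all genes by Benjamini-Hochberg), on the 8 WT, the 8 KO or all 16 libraries for within-WT, within-KO and between-genotype comparisons. Genes averaging under 10 counts were dropped, and 37 mitochondrial genes, at 0 in every library, were left out. Changes in neurite enrichment had 1 term per insert, taken from the replicate number. SEs are the log2 change over the root of F. Between genes, CPM was divided by the exon length in the count table. The 2 libraries of a group come from distinct litters by the study's methods, while soma and neurites share an insert, and control and KCl share a litter. Fits without a block treated all libraries as independent and shared the spread over groups. Their p-values are therefore not those of fully independent cultures. Counts are of PCR-amplified reads, so depth covers counting error only. Named genes are the members, Mettl3, list genes past the test and the 5 genes most like Slc7a3; Slc7a4, Slc7a12, Slc3a2 and list genes named without a call were added after their values were seen. The fit was tested on simulated data. Alternatives used DESeq2 1.42.0, RLE scaling, no filter, other sets of libraries, a replicate block, each library left out and, chosen after seeing the data, no TMM scaling. Gene places come from GENCODE M21 and figures from Python 3.11.15 with matplotlib 3.10.9.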

Additional observations from a re-analysis of the deposited data

How the results depend on the processing

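Numbers of called members among 10 changed with the libraries that share the spread. With all 16 libraries, WT neurites against soma gave 0 untreated and 0 with KCl, and WT soma KCl against Ctrl gave 0, in place of 2, 2 and 1, with 0, 0 and 332 genes called in all in place of 3133, 2213 and 1581; Slc7a3 then had adjusted p of 0.34 for untreated neurites and 0.203 for the soma response, and the wider spread of the KO libraries enters that fit by construction. WT KCl neurites against soma gave 1 without the filter and 1 with only the 4 libraries compared, Slc7a6 falling under 1.5-fold. Untreated WT neurites against soma gave 3 without the filter (Slc7a10 added). Without TMM, chosen after seeing the data, it gave 4 (Slc7a1 and Slc7a14 added; 5069 genes), with KCl 3, and WT soma KCl gave 0. The KCl change in WT neurite enrichment gave 1 with RLE scaling, 1 without the filter, 1 in DESeq2 and 1 without the replicate block, in place of 0, and 0 at an adjusted p. KO against WT gave 1 in untreated neurites without the filter (Slc7a5), and in KCl soma 2 without the filter (Slc7a2, Slc7a3; 2118 genes called in place of 53) and 1 in DESeq2 (Slc7a3; 1029 genes). For the KCl changes in KO, the value of Slc7a3 in soma turned from 0.05 to −0.05 without both libraries of KCl-treated KO replicate 1, to −0.02 without its soma library and to −0.32 without untreated KO soma replicate 2 (left-out range −0.32 to 0.50). Slc7a6 in KCl-treated KO neurites against soma turned from −0.29 to 0.06 without KO neurite replicate 2 (left-out range −0.65 to 0.06). Slc7a2 turned from 1.86 to −0.19 and −0.16 in soma and from 2.12 to −1.87 and −1.89 in neurites, without both libraries and without the single library (left-out ranges −0.16 to 2.68 and −1.89 to 2.94). Over all genes, no filter moved WT neurites KCl from 1147 to 1761 calls, the 4 KO contrasts from 0 to 176, 2, 780 and 742 (neurites against soma untreated and with KCl, then KCl in soma and neurites), untreated KO against WT from 44 to 505 in soma and from 40 to 353 in neurites, the genotype difference from 0 to 229, and the unadjusted KCl and KO changes in enrichment from 779 to 1457 and from 1001 to 2676. DESeq2 gave 413 and 306 for untreated KO against WT, 2 for the genotype difference, 498 and 1616 for the enrichment changes. With all 16 libraries WT neurites KCl fell to 254 calls, the KCl change in enrichment to 285, and KO KCl rose to 273 and 225. Without both libraries of KCl-treated KO replicate 1, untreated KO against WT rose to 411 and 259 and KO KCl to 19 and 12. With only the 4 libraries compared, KO against WT gave 0, 136 and 0. The KO change in enrichment gave 312 without the replicate block. The cause was not tested in any of these.

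Leaving out 1 library each, called members ran from 1 to 3 for untreated WT neurites against soma, 1 to 2 with KCl, 0 to 1 for WT soma KCl, 0 to 2 for the KCl change in WT enrichment and 0 to 2 for the KO change, and stayed at 0 in the other 9 comparisons. The replicate block changed no call in the 12 comparisons it was added to (Slc7a3 −1.35 for untreated WT neurites and 1.0 for WT soma KCl, on the log2 scale), but ended the adjusted p of Slc7a1 in WT soma KCl (0.0631), which had not reached 2-fold, and moved all calls from 53 to 607 for KCl soma KO against WT and from 0 to 4 and 2 for KO KCl. Replicate numbers were not shown to pair libraries: deviations of same-numbered libraries correlated at −0.187 to 0.183 except between KCl-treated KO soma and neurites, at 0.902. Members at 10 CPM or more in untreated WT soma were 7 with and without TMM. With 2 libraries a group, and 33 to 150 counts for Slc7a2, Slc7a7 and Slc7a10 in untreated WT soma, small changes of the low members were not detectable.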
